A study of Arabidopsis thaliana with 12 samples.

Results

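The genes described here carry the gibberellin signal from its receptors to its repressors in Arabidopsis thaliana. They are 5 DELLA repressor genes (GAI, RGA, RGL1, RGL2 and RGL3), 3 receptor genes (GID1A, GID1B and GID1C), the F-box gene SLY1 and the O-fucosyltransferase gene SPY. They were picked by gene identifier. All 10 were counted in all 12 libraries, among 17751 genes that were. The libraries hold polyadenylated RNA of germinating seeds, in 6 groups of 2 libraries. The groups were ago4-2 mutant seeds on medium with 100 mM NaCl, ago4-2 seeds on control medium, ago4-3 mutant seeds with 100 mM NaCl, ago4-3 seeds on control medium, and seeds of the Col-0 wild-type ecotype with 100 mM NaCl or on control medium. Every group was grown on 1× MS (Murashige and Skoog salts) in long days, and the mutants differ from Col-0 in AGO4, an Argonaute protein that uses small RNAs to direct DNA methylation. The labels give no time after sowing and no description of the lesion of either allele, and each genotype is 1 line.

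Gibberellin promotes germination by removing DELLA proteins. The hormone binds a GID1 receptor, the loaded receptor grips the DELLA protein at its N-terminal motifs, and the SLY1 F-box protein then hands the DELLA protein to an SCF ubiquitin ligase for destruction. SPY attaches fucose to DELLA proteins and was found as a gene whose loss lets seeds germinate when gibberellin is short. RGL2 is the DELLA protein known as the main brake on germination, while RGA and GAI are best known for restraining stem growth.

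The DELLA motif, the N-terminal stretch after which the repressors are named and through which the receptor takes hold, is shown as DNA for all 5 repressors because it is what sets these genes apart from other GRAS genes. Each line is a window of 69 coding bases, 5′ to 3′ on the coding strand, from RefSeq's TAIR10.1 genome. Capitals mark the 15 bases at the place of the motif, whose codons in RGL1 and RGL3 do not spell DELLA exactly.
GAI: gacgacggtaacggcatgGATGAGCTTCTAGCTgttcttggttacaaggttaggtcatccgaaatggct
RGA: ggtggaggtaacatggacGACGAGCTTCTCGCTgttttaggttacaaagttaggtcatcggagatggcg
RGL1: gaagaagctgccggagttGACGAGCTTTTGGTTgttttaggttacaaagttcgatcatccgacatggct
RGL2: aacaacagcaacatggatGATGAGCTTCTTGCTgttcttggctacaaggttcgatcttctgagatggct
RGL3: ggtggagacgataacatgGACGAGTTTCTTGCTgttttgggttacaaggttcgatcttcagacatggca
The motif itself differed between any pair of the 5 genes at 1 to 4 of its 15 bases, with GAI and RGL2 closest (1 base) and RGL1 at 3 or 4 bases from each of the others. Over the whole coding sequence, GAI and RGA were the closest pair (74.5% identical bases), followed by RGL2 and RGL3 (71.4%). No stretch of identical bases between 2 DELLA genes was longer than 30 bases. Each DELLA gene has a single exon in this annotation. GAI (AT1G14920) lies at chr1:5148982-5151415 (plus strand), RGA (AT2G01570) at chr2:255247-257568 (minus), RGL1 (AT1G66350) at chr1:24748105-24750186 (plus), RGL2 (AT3G03450) at chr3:819337-821652 (minus) and RGL3 (AT5G17490) at chr5:5763989-5766246 (minus).

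The receptor genes GID1A and GID1B are printed with the 250 bases before their annotated start, because they moved in opposite directions with salt. Capitals mark 2 motifs on either strand: ACGTG (reverse CACGT), the core of the abscisic acid response element, and TAACAAA (reverse TTTGTTA), a gibberellin response element. The windows are chr3:1430113-1430362 for GID1A and chr3:23288993-23289242 for GID1B, both on the plus strand of TAIR10.1.
GID1A: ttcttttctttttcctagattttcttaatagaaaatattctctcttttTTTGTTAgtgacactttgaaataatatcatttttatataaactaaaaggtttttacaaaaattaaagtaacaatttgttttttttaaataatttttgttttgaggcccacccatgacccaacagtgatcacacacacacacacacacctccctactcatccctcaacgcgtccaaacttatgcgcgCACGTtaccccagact
GID1B: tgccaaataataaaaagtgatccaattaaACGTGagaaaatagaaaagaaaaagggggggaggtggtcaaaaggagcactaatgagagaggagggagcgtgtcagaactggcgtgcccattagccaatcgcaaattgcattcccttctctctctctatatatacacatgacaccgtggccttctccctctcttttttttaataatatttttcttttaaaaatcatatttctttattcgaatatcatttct
ACGTG was present before both, at −16 (GID1A) and −221 (GID1B) from the start. Windows of 9 of the 10 genes were searched, and 5 held ACGTG: GID1A, GID1B, RGL3, SLY1 and SPY. The motif stood in 22.9% of the same windows of 27443 coding genes. TAACAAA was found before 3 of the 9 (RGL3, GID1A and SLY1), against 16.1% of coding genes. CATGCA (reverse TGCATG), the core of the RY element of seed genes, was found before 1 (GAI), against 8.43%, and CACGTG, the G-box, before 0, against 6.49%. GID1A and GID1C share 82.9% of their coding bases, with a longest identical run of 35 bases, and GID1B shares 67.4% with GID1A and 67.6% with GID1C. The gene bodies are at chr3:1430363-1432844 (GID1A, AT3G05120), chr3:23289243-23291486 (GID1B, AT3G63010) and chr5:9628990-9631291 (GID1C, AT5G27320), each with 2 exons. SLY1 (AT4G24210) is at chr4:12563279-12564482 (1 exon) and SPY (AT3G11540) at chr3:3631887-3638100 (18 exons), both on the plus strand, and no annotated gene overlaps any of the 10.

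The libraries held 18168653 to 47517007 counts each. AGO4 itself was at 35.4 to 49.1 CPM in the 8 ago4-2 and Col-0 libraries and at 0.549 to 1.35 CPM in the 4 ago4-3 libraries. CPM is the count scaled to the library size adjusted by TMM. The label of ago4-3 is therefore visible in the level of the AGO4 transcript, and that of ago4-2 is not. The 10 seed storage and maturation genes used as markers, among them cruciferins, albumins and late embryogenesis proteins, were all above 0 in every group. Their summed level was 10047 to 11298 CPM in ago4-2 with NaCl and 2057 to 2270 CPM in ago4-2 control, 1888 to 2064 CPM in ago4-3 with NaCl and 220 to 397 CPM in ago4-3 control, and 867 to 1222 CPM in Col-0 with NaCl and 264 to 297 CPM in Col-0 control. The list was split in its response to salt: 5 of the 10 rose and 2 fell in ago4-2 (median log2 fold change 0.77), 5 rose and 1 fell in ago4-3 (0.57), 4 rose and 1 fell in Col-0 (0.36), and 5 rose and 4 fell on average. Over all genes, 35.1% were called for salt in ago4-2, 23% in ago4-3, 18.2% in Col-0 and 48.8% on average. The 6 counted photosynthesis markers of the green seedling summed to 3855 to 4176 CPM in ago4-2 with NaCl against 3270 to 3754 in ago4-2 control, 4680 to 5402 CPM in ago4-3 with NaCl against 3049 to 3364 in ago4-3 control, and 4619 to 5615 CPM in Col-0 with NaCl against 2375 to 2689 in Col-0 control. Gene by gene, 0 of the 6 rose and 3 fell in ago4-2 (median log2 fold change −0.50), 4 rose and 2 fell in ago4-3 (0.75), and 4 rose and 0 fell in Col-0 (1.45). For 5 of the 6 the response of ago4-2 was lower than that of Col-0 by the test of the difference. Over all genes, 4.43% passed that test in either direction. These sums differed with salt and with genotype, as the groups compared below do. The part of these sums in the results was not tested. In such whole-seed RNA, fewer cells of a type and less RNA per cell cannot be told apart. The study's design text calls the 2 libraries of a group biological replicates, and p-values measure only the spread between such libraries.

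Per length of transcript, RGL2 had the highest level of the 10 genes. Its mean over the 12 libraries was 77.3 CPM per kb of exon. RGA followed at 48.1, RGL3 at 36.6 and GAI at 32.2 CPM per kb, so that 4 of the 5 repressors stood above every other gene of the group. RGL1 was the exception among them, at 6.07 CPM per kb. SLY1 averaged 16.6, SPY 13.5 and the most abundant receptor gene, GID1A, 11.9 CPM per kb. The other receptors were the lowest of the set, GID1C at 4.04 and GID1B at 2.35 CPM per kb, and the smallest count behind any value here was 48 reads, for GID1B in an ago4-2 library with NaCl. The widest range among group means was that of GID1B, whose highest group mean was 2.38 times its lowest, followed by GID1A (2.13 times) and RGL1 (2.05 times). RGA had the narrowest range (1.13 times), then SLY1 (1.27 times).

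**Figure D1:**
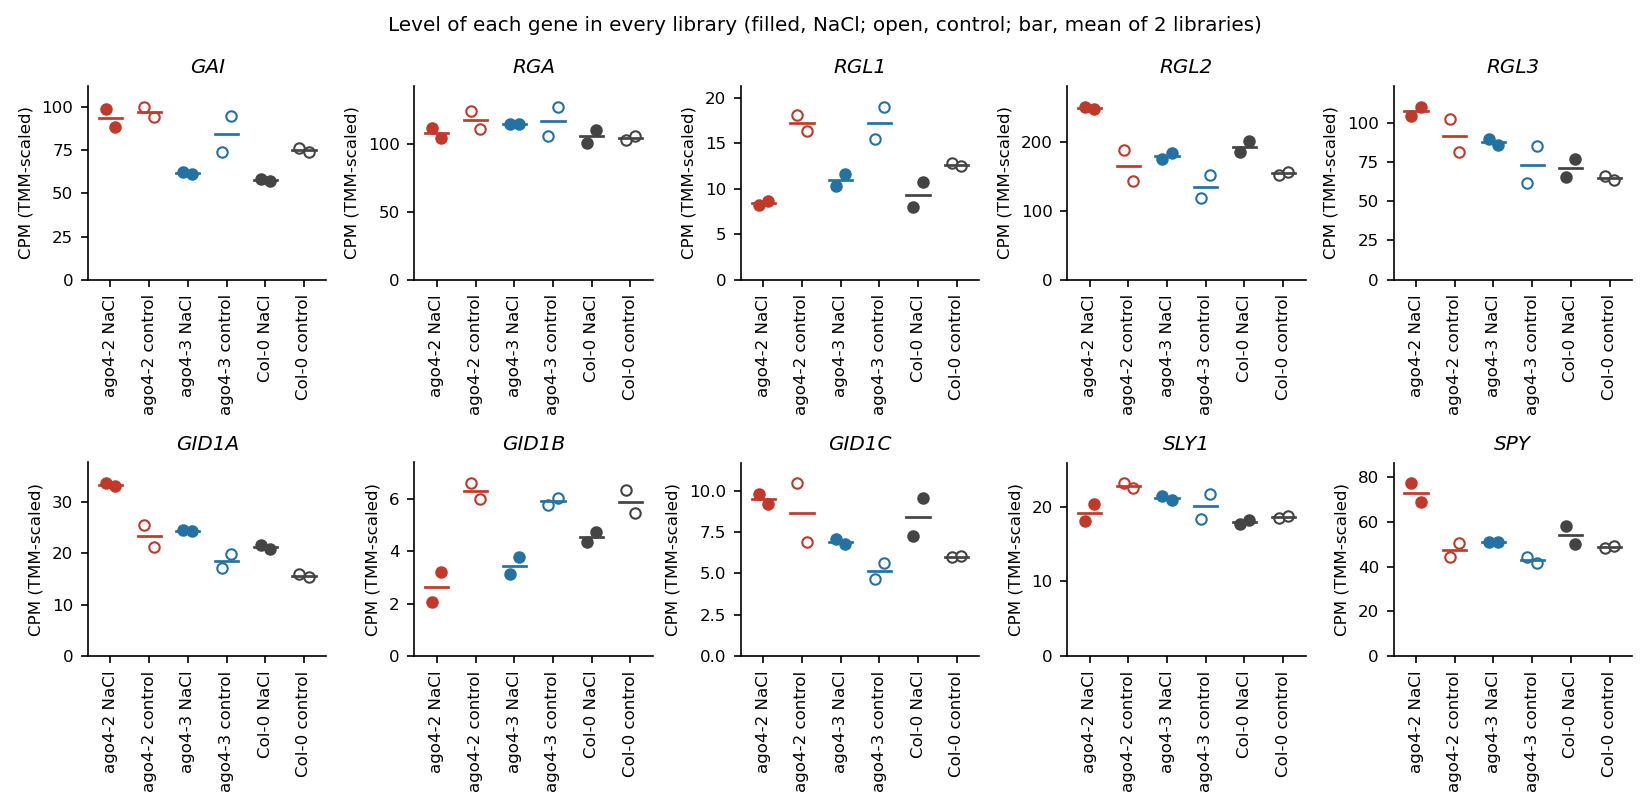
Level of each of the 10 genes in CPM (vertical axes, from 0, one panel per gene) in each library of the 6 groups. Filled points are NaCl libraries, open points control libraries and bars the mean of 2 libraries. RGL2, GID1A and SPY lie higher and RGL1 and GID1B lower with NaCl in every genotype, while the RGA points stay between 101 and 128 CPM.

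The effect of salt is the first comparison the design gives, within each genotype and averaged over the 3. With NaCl, the germination repressor RGL2, the receptor GID1A and SPY were higher, and the repressor RGL1 and the receptor GID1B were lower, in every NaCl library than in any control library of the same genotype. That was 3 of 10 genes higher and 2 of 10 lower, where 16.2% of all genes tested were higher and 16% lower in this way. Averaged over the genotypes, 8 of the 10 genes passed the test (5 higher, 3 lower), where 48.8% of all genes did. RGA and SLY1 were the 2 that did not.

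Among the repressors, RGL2, the DELLA gene tied to germination, had 250.4 and 247 CPM in ago4-2 with NaCl, against 187 and 143 CPM in ago4-2 control. It had 175 and 183 CPM in ago4-3 with NaCl, against 118 and 151 CPM in ago4-3 control. In Col-0 it had 185 and 200.4 CPM with NaCl, against 151 and 156 CPM in control. The groups did not overlap in any genotype, and the ago4-2 NaCl libraries were the highest of the 12. RGL2 rose in ago4-2 (log2 fold change 0.59 ± 0.13 SE, adjusted p = 0.00272) and in ago4-3 (0.41 ± 0.13, adjusted p = 0.0333). The Col-0 value, 0.32 ± 0.13, did not pass (adjusted p = 0.101), and the average over genotypes was 0.44 ± 0.08 (adjusted p = 0.000198). The ago4-3 call was lost when any 1 of 7 libraries was left out, among them both ago4-3 NaCl libraries (adjusted p up to 0.273).

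RGL1, a DELLA gene with roles in seed and flower, went the other way. It had 8.22 and 8.61 CPM in ago4-2 with NaCl, against 18.1 and 16.3 CPM in ago4-2 control. The ago4-3 libraries held 10.3 and 11.7 CPM with NaCl, against 15.5 and 19.04 CPM in control, and the Col-0 libraries 7.97 and 10.8 CPM with NaCl, against 12.8 and 12.5 CPM in control. In each genotype both NaCl libraries were below both control libraries, as they were for 16% of all genes. RGL1 fell in ago4-2 (log2 fold change −1.03 ± 0.16 SE, adjusted p = 0.000237), in ago4-3 (−0.64 ± 0.16, adjusted p = 0.00966) and on average (−0.70 ± 0.09, adjusted p = 2.12e-05). In Col-0 the value was −0.44 ± 0.16 (adjusted p = 0.0717). The ago4-3 call was lost without ago4-3 control replicate 2 or ago4-3 NaCl replicate 1 (adjusted p up to 0.102), and the ago4-2 and averaged calls held under all 19 alternative settings tried.

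GAI, a repressor of growth that is close in sequence to RGA, had 62.4 and 61.3 CPM in ago4-3 with NaCl, against 73.9 and 94.9 CPM in ago4-3 control. In Col-0 it had 58.1 and 57.4 CPM with NaCl, against 76.2 and 74.1 CPM in control. In ago4-2 it had 99.0 and 88.3 CPM with NaCl, against 100.3 and 94.5 CPM in control, and there the groups overlapped. GAI fell in ago4-3 (−0.45 ± 0.11, adjusted p = 0.00847), in Col-0 (−0.38 ± 0.11, adjusted p = 0.0239) and on average (−0.29 ± 0.06, adjusted p = 0.00126). In ago4-2 its log2 fold change was −0.06 ± 0.11 (adjusted p = 0.724). The test of that difference in response between ago4-2 and Col-0 gave 0.32 ± 0.15 and did not pass (adjusted p = 0.271). The ago4-3 call was lost without ago4-3 control replicate 2 or either ago4-3 NaCl library (adjusted p up to 0.135), and the Col-0 call without 1 of the 4 Col-0 libraries, whichever it was (up to 0.141).

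RGL3, a DELLA gene better known from stress and jasmonate signalling, had 104 and 110.3 CPM in ago4-2 with NaCl, against 102 and 81.1 CPM in control. It had 90.01 and 85.8 CPM in ago4-3 with NaCl, against 61.5 and 85.1 CPM in control, and 65.3 and 77.1 CPM in Col-0 with NaCl, against 65.8 and 63.6 CPM in control. The Col-0 groups overlapped, and the log2 fold changes of 0.14 to 0.27 did not pass in any single genotype. The average, 0.21 ± 0.08, passed narrowly (adjusted p = 0.0423) and was lost under 10 of the 19 alternatives (adjusted p up to 0.136). RGA, the repressor with the second highest level, lay between 101 and 128 CPM in all 12 libraries, its NaCl and control libraries overlapped in each genotype, and its average log2 fold change was −0.04 ± 0.06 (adjusted p = 0.574).

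Among the receptors, GID1A and GID1B changed in opposite directions with salt. GID1A had 33.6 and 32.96 CPM in ago4-2 with NaCl, against 25.5 and 21.3 CPM in ago4-2 control, and 24.5 and 24.3 CPM in ago4-3 with NaCl, against 17.1 and 19.9 CPM in ago4-3 control. In Col-0 it had 21.5 and 20.8 CPM with NaCl, against 15.9 and 15.4 CPM in control. It was called in each genotype, where 35.1% of all genes were called in ago4-2, 23% in ago4-3 and 18.2% in Col-0. The share of all genes called in all 3 is not given. GID1A rose by a log2 fold change of 0.52 ± 0.12 in ago4-2 (adjusted p = 0.00414), 0.40 ± 0.12 in ago4-3 (adjusted p = 0.0281) and 0.44 ± 0.12 in Col-0 (adjusted p = 0.0211). The average was 0.45 ± 0.07 (adjusted p = 9.23e-05). Single libraries decided these calls: the ago4-2 call was lost without ago4-2 control replicate 2 (adjusted p = 0.0525), the ago4-3 call without ago4-3 control replicate 1, without either ago4-3 NaCl library or with the ago4-3 libraries fitted alone (up to 0.188), and the Col-0 call without 1 of the 4 Col-0 libraries, whichever it was (up to 0.142). The averaged call held in all 19 alternatives.

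GID1B, whose protein is known for the tightest hold on gibberellin of the 3 receptors, had 2.08 and 3.20 CPM in ago4-2 with NaCl, against 6.59 and 5.97 CPM in ago4-2 control. It had 3.11 and 3.77 CPM in ago4-3 with NaCl, against 5.78 and 6.03 CPM in ago4-3 control, and 4.36 and 4.73 CPM in Col-0 with NaCl, against 6.31 and 5.47 CPM in control. In each genotype both NaCl libraries were below both control libraries, as they were for 16% of all genes. The ago4-2 NaCl replicate 1 library was the lowest. GID1B fell in ago4-2 (−1.23 ± 0.23, adjusted p = 0.000849), in ago4-3 (−0.77 ± 0.23, adjusted p = 0.0235) and on average (−0.79 ± 0.13, adjusted p = 0.000137). Its value in Col-0, −0.38 ± 0.21, did not pass (adjusted p = 0.250), and the ago4-3 call was lost without replicate 1 or 2 of ago4-3 control or replicate 1 of ago4-3 NaCl (adjusted p up to 0.158).

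GID1C, the receptor gene nearest to GID1A in sequence, had 9.78 and 9.21 CPM in ago4-2 with NaCl, against 10.5 and 6.89 CPM in ago4-2 control, which overlapped. It had 7.10 and 6.76 CPM in ago4-3 with NaCl, against 4.68 and 5.61 CPM in control, and 7.25 and 9.54 CPM in Col-0 with NaCl, against 5.97 and 6.05 CPM in control, without overlap. No single genotype passed the test (log2 fold changes 0.15 to 0.48). The average did (0.36 ± 0.12, adjusted p = 0.0222), though not when any of 6 single libraries was left out (adjusted p up to 0.0746).

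Of the proteins that act on DELLA, SLY1, the F-box subunit that recruits DELLA to the ubiquitin ligase, had 18.01 and 20.4 CPM in ago4-2 with NaCl, against 23.1 and 22.4 CPM in control. It had 21.4 and 20.9 CPM in ago4-3 with NaCl, against 18.4 and 21.7 CPM in control, and 17.7 and 18.2 CPM in Col-0 with NaCl, against 18.5 and 18.8 CPM in control. These groups lay apart in ago4-2 and Col-0 by small amounts and overlapped in ago4-3, and SLY1 passed no test (average −0.07 ± 0.07, adjusted p = 0.409). SPY had 77.4 and 68.9 CPM in ago4-2 with NaCl, against 44.6 and 50.5 CPM in ago4-2 control. It had 51.1 and 51.0 CPM in ago4-3 with NaCl, against 44.5 and 41.7 CPM in control, and 58.1 and 50.2 CPM in Col-0 with NaCl, against 48.3 and 49.5 CPM in control. SPY rose in ago4-2 (0.62 ± 0.10, adjusted p = 0.000343) and on average (0.34 ± 0.06, adjusted p = 0.000276). Its values in ago4-3 (0.24 ± 0.10, adjusted p = 0.107) and Col-0 (0.15 ± 0.10, adjusted p = 0.358) did not pass.

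By genotype, 5 of the 10 genes were called in ago4-2 (3 higher, 2 lower), where 35.1% of all genes were. In ago4-3 it was also 5 (2 higher, 3 lower), where 23% of all genes were called. In Col-0 it was 2, GID1A higher and GAI lower, where 18.2% of all genes were called. The median log2 fold change of the 10 genes was 0.05 in ago4-2, 0.16 in ago4-3 and 0.08 in Col-0, beside −0.02, −0.01 and 0.01 over all genes. The responses themselves were compared by the difference between the log2 fold change of a mutant and that of Col-0. None of the 10 genes passed for ago4-2, where 4.43% of all genes did, although 3 had an unadjusted p under 0.05. SPY came nearest (0.47 ± 0.14, adjusted p = 0.0831), and was called by DESeq2 and without Col-0 NaCl replicate 1 (adjusted p down to 0.0470). None passed for ago4-3, where 0.0225% of all genes did, and 0 had an unadjusted p under 0.05 and 0 were called by DESeq2.

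**Figure D2:**
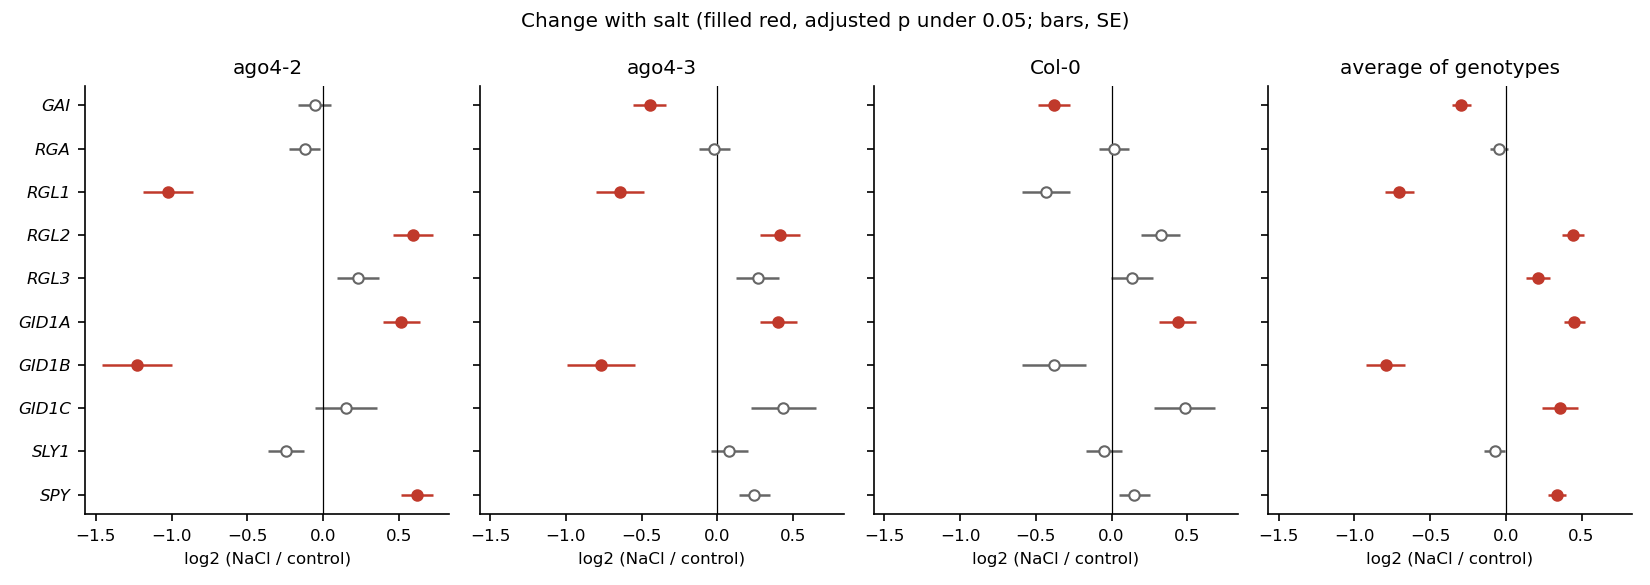
Log2 fold change of NaCl over control (horizontal axes) for each of the 10 genes in ago4-2, ago4-3, Col-0 and on average over the genotypes. Bars are the SE and filled red points have an adjusted p under 0.05. GID1A is called in all 3 genotypes at 0.40 to 0.52, and GID1B in ago4-2 is the lowest point at −1.23.

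Because members of a family moved in different directions, its make-up was different with salt. Shares were taken per length, as CPM per kb of each gene over the family's sum in the same library. RGL2 made up 44.0 ± 0.39% of DELLA transcript in ago4-2 with NaCl against 33.7 ± 2.16% in ago4-2 control (SD, n = 2). It made up 39.3 ± 0.94% in ago4-3 with NaCl against 31.6 ± 0.14% in ago4-3 control, and 44.1 ± 0.32% in Col-0 with NaCl against 37.5 ± 0.64% in Col-0 control. In each genotype the difference was larger than the spread between libraries. With 2 libraries against 2, an exact permutation test of a share could not go below p = 0.333 (2-sided), and none is given. GAI made up 15.8 ± 1.00%, 12.9 ± 0.24% and 12.6 ± 0.93% of DELLA transcript with NaCl in ago4-2, ago4-3 and Col-0, against 19.1 ± 1.61%, 18.8 ± 0.09% and 17.4 ± 0.45% in the controls of the same genotypes. RGL1 was the smallest share throughout, from 1.66 to 2.68% with NaCl against 3.43 to 4.51% in control. The summed DELLA level was 244 ± 4.29 CPM per kb in ago4-2 with NaCl against 211 ± 26.7 in ago4-2 control, 197 ± 1.21 in ago4-3 with NaCl against 184 ± 31.4 in ago4-3 control, and 189 ± 12.2 in Col-0 with NaCl against 177 ± 0.96 in Col-0 control. In ago4-3 and Col-0 these differences were smaller than the larger SD of their 2 groups.

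The make-up of the receptor family also differed with salt. GID1B made up 5.44 ± 1.65% of GID1 transcript in ago4-2 with NaCl against 15.5 ± 1.36% in ago4-2 control, 9.29 ± 1.25% in ago4-3 with NaCl against 18.95 ± 1.27% in ago4-3 control, and 12.5 ± 0.19% in Col-0 with NaCl against 20.2 ± 1.41% in Col-0 control (SD, n = 2). GID1A took 73.0 ± 0.78%, 70.0 ± 0.50% and 62.1 ± 4.05% with NaCl in ago4-2, ago4-3 and Col-0, against 61.2 ± 1.86%, 62.9 ± 0.70% and 57.1 ± 0.47% in the controls. Expressed as a ratio per length, GID1A stood at 17.2 and 10.96 times GID1B in the ago4-2 NaCl libraries, against 4.12 and 3.80 times in ago4-2 control. The ratio was 8.37 and 6.85 in ago4-3 with NaCl against 3.14 and 3.51 in ago4-3 control, and 5.26 and 4.69 in Col-0 with NaCl against 2.68 and 2.99 in Col-0 control. The lowest NaCl ratio of any genotype, 4.69, was above the highest control ratio, 4.12. The corresponding ratio of RGL2 to RGL1 was 27.4 and 25.8 in ago4-2 with NaCl against 9.31 and 7.88 in control, 15.3 and 14.1 in ago4-3 with NaCl against 6.86 and 7.14 in control, and 20.8 and 16.8 in Col-0 with NaCl against 10.6 and 11.3 in control. Here too every NaCl library lay above every control library. In both ratios the upper gene was higher and the lower gene was lower with NaCl in each genotype. The separation of the ratios largely follows from that and is no further test. A ratio shows that the 2 genes changed unequally and not which of them moved. The summed receptor level was 23.8 ± 0.06 CPM per kb in ago4-2 with NaCl against 19.99 ± 3.13 in ago4-2 control, 18.2 ± 0.03 in ago4-3 with NaCl against 15.3 ± 1.495 in ago4-3 control, and 17.8 ± 0.74 in Col-0 with NaCl against 14.3 ± 0.46 in Col-0 control.

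**Figure D3:**
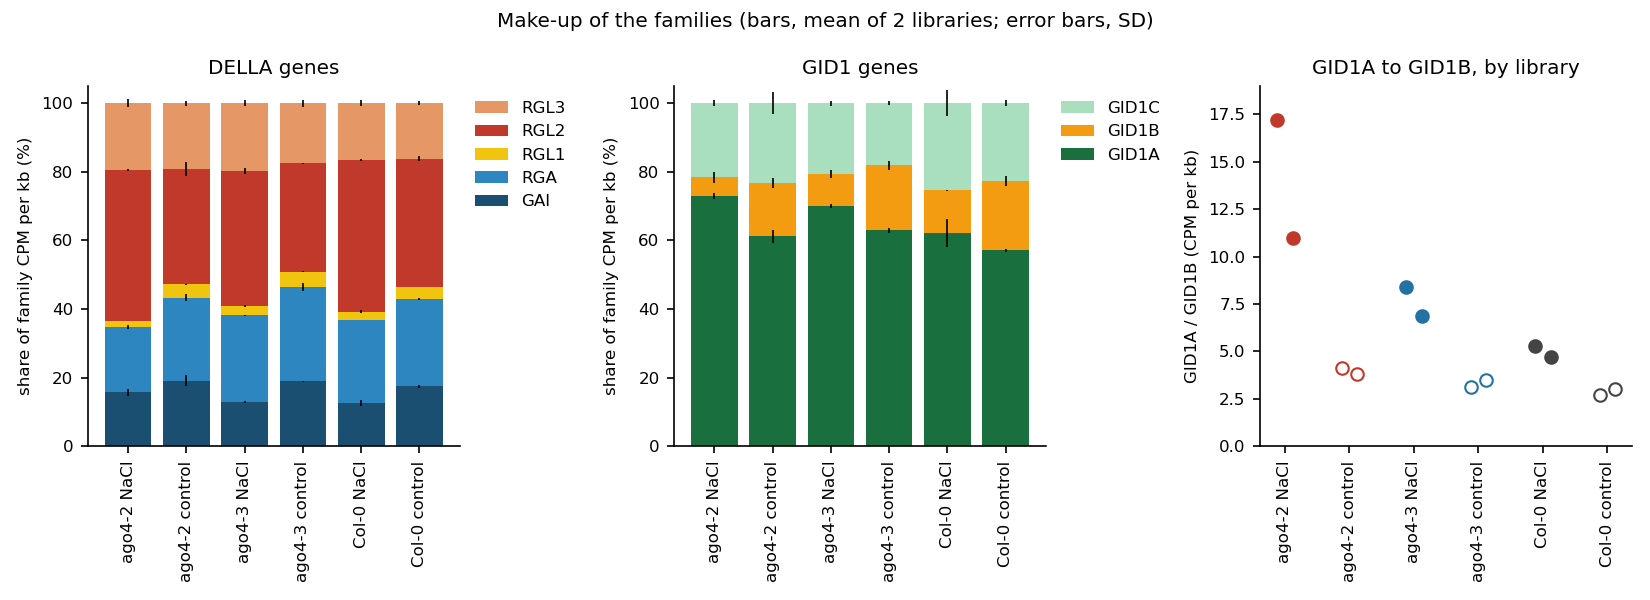
Share of each gene in its family's transcript, in percent of summed CPM per kb, for the DELLA genes (left) and the GID1 genes (middle), as stacked bars of the mean of 2 libraries with SD, and the GID1A to GID1B ratio per library (right, axis from 0). The GID1B share is 5.44 to 12.5% with NaCl and 15.5 to 20.2% in control, and all 6 NaCl ratios (4.69 to 17.2) lie above the 6 control ratios (2.68 to 4.12).

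The second comparison sets each mutant beside Col-0 on the same medium. In ago4-2 with NaCl, 3 repressor genes (GAI, RGL2 and RGL3), the receptor GID1A and SPY were higher than in Col-0 with NaCl, and GID1B was lower. These were 6 of 10 genes (5 higher, 1 lower), where 29.3% of all genes were called. GAI had 99.0 and 88.3 CPM in ago4-2 with NaCl, against 58.1 and 57.4 CPM in Col-0 with NaCl, and rose by a log2 fold change of 0.70 ± 0.11 (adjusted p = 0.000271). GID1A had 33.6 and 32.96 CPM against 21.5 and 20.8 CPM in Col-0 and rose by 0.65 ± 0.12 (adjusted p = 0.000965). These 2 calls held under all 19 alternative settings. RGL3 (0.59 ± 0.14, adjusted p = 0.00556), SPY (0.43 ± 0.10, adjusted p = 0.00544) and GID1B (−0.77 ± 0.23, adjusted p = 0.0203) also passed, each lost without 1 to 3 of the single libraries: RGL3 without ago4-2 NaCl replicate 2 (adjusted p = 0.0503), SPY without Col-0 NaCl replicate 2 or ago4-2 NaCl replicate 1 (up to 0.0807), and GID1B without either Col-0 NaCl library or ago4-2 NaCl replicate 1 (up to 0.192). RGL2 passed narrowly at 0.37 ± 0.13 (adjusted p = 0.0439), was lost under 10 of the 19 alternatives, and kept its direction in all of them. RGA, RGL1, GID1C and SLY1 lay between −0.15 and 0.18 and did not pass.

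On control medium, 3 genes were higher in ago4-2 than in Col-0 and none was lower, where 8.44% of all genes were called (5.22% higher). GAI had 100.3 and 94.5 CPM in ago4-2 control, against 76.2 and 74.1 CPM in Col-0 control. RGL3 had 102 and 81.1 CPM against 65.8 and 63.6 CPM in Col-0, and GID1A had 25.5 and 21.3 CPM against 15.9 and 15.4 CPM in Col-0. All 3 were higher in both ago4-2 libraries than in either Col-0 library. So were uncalled genes, among them RGL1 and SLY1, and the separation does not set the 3 apart. The share of all genes higher in this way is not given for this contrast. The log2 fold changes of the 3 called genes were 0.37 ± 0.11 for GAI (adjusted p = 0.0461), 0.50 ± 0.14 for RGL3 (adjusted p = 0.0416) and 0.57 ± 0.12 for GID1A (adjusted p = 0.00898). None of the 3 was called when the 4 libraries of this contrast were fitted alone, or without either Col-0 control library or ago4-2 control replicate 1 (adjusted p up to 0.260 for GAI, 0.275 for RGL3 and 0.0952 for GID1A). GAI and RGL3 were lost under 9 of the 19 alternatives, which also include the replicate block and leaving out either ago4-2 NaCl or either ago4-3 NaCl library. GAI, RGL3 and GID1A were thus higher in ago4-2 on both media, as were the 10 storage and maturation markers, each of which passed as higher on both (median log2 fold change 3.20 with NaCl and 3.25 in control). The part of these markers in the result was not tested.

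Its Col-0 libraries being the same as those used for ago4-2, the ago4-3 comparison is not independent of the one above. The ago4-3 mutant was called different from Col-0 for none of the 10 genes, with NaCl (1.19% of all genes called) or on control medium (1.66%). On each medium 1 gene had an unadjusted p under 0.05, and DESeq2 called 0. That gene was RGL3 with NaCl (0.30 ± 0.14, adjusted p = 0.424) and RGL1 in control. The largest values were those of RGL1 in control (0.44 ± 0.16, adjusted p = 0.218), with 15.5 and 19.04 CPM in ago4-3 against 12.8 and 12.5 CPM in Col-0, and GID1B with NaCl (−0.39 ± 0.22, adjusted p = 0.519), with 3.11 and 3.77 CPM in ago4-3 against 4.36 and 4.73 CPM in Col-0. Neither pair of groups overlapped, but 24.4% of all genes lay above without overlap in the control comparison and 21.2% below in the NaCl comparison.

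**Figure D4:**
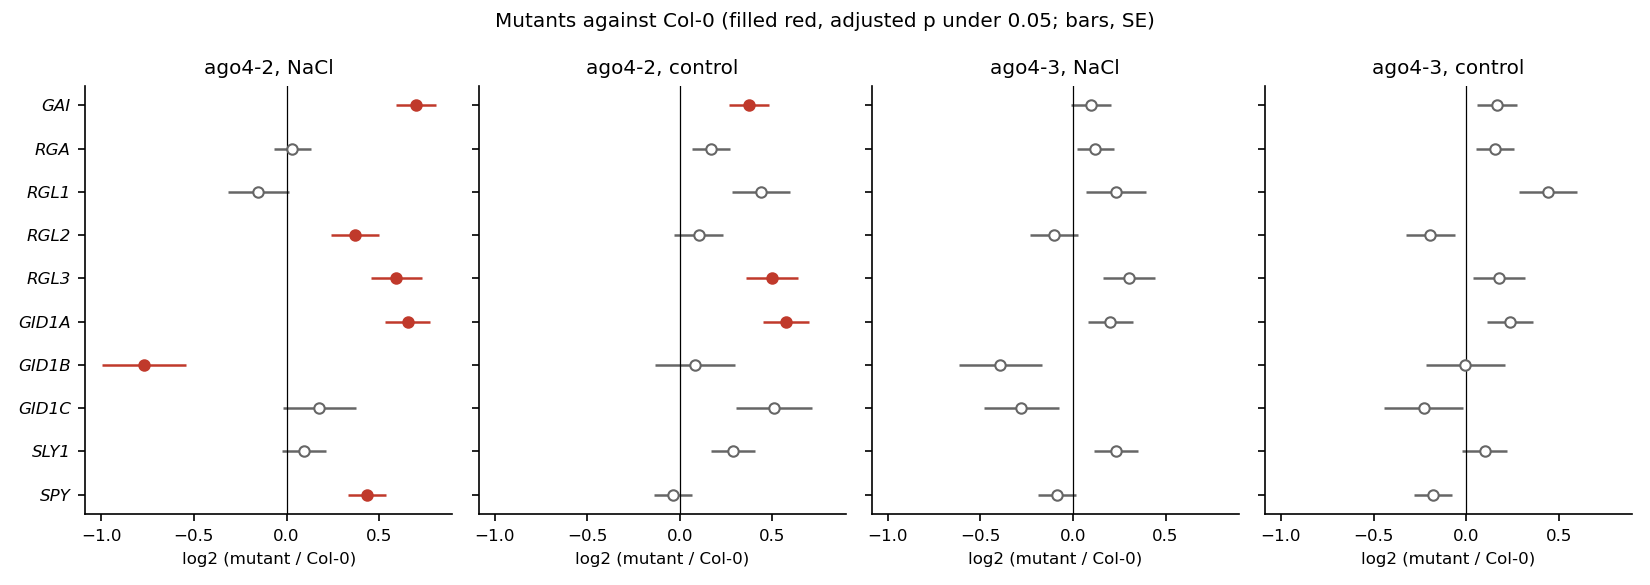
Log2 fold change of each mutant over Col-0 on the same medium (horizontal axes) for the 10 genes, with bars for the SE and filled red points for an adjusted p under 0.05. Called points are in the ago4-2 panels, 6 with NaCl and 3 in control, and the ago4-3 panels have 0.

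Set against each other, the mutants differed with NaCl in 4 of the 10 genes, all lower in ago4-3 than in ago4-2, where 20.9% of all genes were called (11% lower). GAI had 62.4 and 61.3 CPM in ago4-3 with NaCl, against 99.0 and 88.3 CPM in ago4-2 with NaCl (−0.60 ± 0.11, adjusted p = 0.00132). SPY had 51.1 and 51.0 CPM in ago4-3 against 77.4 and 68.9 CPM in ago4-2 (−0.52 ± 0.10, adjusted p = 0.00239). RGL2 (−0.47 ± 0.13, adjusted p = 0.0184) and GID1A (−0.45 ± 0.12, adjusted p = 0.0156) were also lower, and both calls were lost when any 1 of the 4 NaCl libraries of the mutants was left out (adjusted p up to 0.110 for RGL2 and 0.0922 for GID1A). On control medium, 1 of the 10 genes was called, where 9% of all genes were. GID1C had 4.68 and 5.61 CPM in ago4-3 control, against 10.5 and 6.89 CPM in ago4-2 control (−0.74 ± 0.21, adjusted p = 0.0426). The ago4-2 libraries differed from each other by more than the nearest libraries of the mutants did, and the call was lost under 11 of the 19 alternatives (adjusted p up to 0.295).

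Across the 6 groups, the order of mean levels differed from gene to gene. RGL2, RGL3, GID1A, GID1C and SPY were highest in ago4-2 with NaCl, GAI, RGA, GID1B and SLY1 in ago4-2 control, and RGL1 in ago4-3 control. RGL2 ran, from high to low, ago4-2 NaCl, Col-0 NaCl, ago4-3 NaCl, ago4-2 control, Col-0 control, ago4-3 control, and 3 of the 5 neighbouring pairs in that order did not overlap. GID1B ran from ago4-2 control through ago4-3 control, Col-0 control, Col-0 NaCl and ago4-3 NaCl to ago4-2 NaCl, where the 3 controls overlapped as neighbours, as did the ago4-3 and ago4-2 NaCl groups. For RGA, 4 of the 5 neighbouring pairs overlapped.

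Genes with which the 10 work were read from 5 lists of gibberellin pathway genes, 63 genes of which 48 were counted in all libraries. Averaged over genotypes, 15 of these 48 rose with salt and 11 fell, where 24.6% of all genes rose and 24.2% fell, with a median log2 fold change of 0.02 beside −0.001 over all genes. Against Col-0, ago4-2 had 11 of the 48 higher and 9 lower with NaCl, where 29.3% of all genes were called, and 11 higher and 2 lower in control, where 8.44% were. For ago4-3 it was 1 higher and 4 lower with NaCl (1.19% of all genes called) and 0 higher and 2 lower in control (1.66%). Of 10 counted gibberellin synthesis genes, 3 were higher and 3 lower on average (median 0.04). GA3OX2, an enzyme of the last step to active gibberellin, had 20.8 and 17.7 CPM in ago4-2 with NaCl, against 73.4 and 82.5 CPM in ago4-2 control, 39.3 and 37.6 CPM in ago4-3 with NaCl, against 67.7 and 69.8 CPM in ago4-3 control, and 26.9 and 37.2 CPM in Col-0 with NaCl, against 54.2 and 56.5 CPM in Col-0 control. It fell in all 3 genotypes, by a log2 fold change of −2.02 ± 0.14 in ago4-2 (adjusted p = 1.03e-07), −0.84 ± 0.13 in ago4-3 (adjusted p = 0.000357) and −0.79 ± 0.13 in Col-0 (adjusted p = 0.000773). The ago4-2 response of GA3OX2 differed from that of Col-0 (−1.23 ± 0.19, adjusted p = 0.00192), and so did that of its relative GA3OX1 (−0.83 ± 0.20, adjusted p = 0.0267). GA20OX3, of the step before, rose on average (1.06 ± 0.13, adjusted p = 1.01e-05). Of 7 GA2OX genes, which inactivate gibberellin, 1 was counted in all libraries, and GA2OX2 passed no test of salt.

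Of the 8 genes for the ubiquitin ligase and for other enzymes that modify DELLA, 2 rose and 1 fell on average (median 0.06), and in Col-0 alone 0 passed. Over all genes, 24.6% rose and 24.2% fell on average, and 18.2% were called in Col-0. The scaffold gene CUL1 rose in ago4-2 (0.67 ± 0.10, adjusted p = 0.000131), in ago4-3 (0.39 ± 0.10, adjusted p = 0.0106) and on average (0.45 ± 0.06, adjusted p = 1.53e-05). SNE, a close relative of SLY1, was at 0.704 to 3.895 CPM and passed narrowly on average (0.67 ± 0.27, adjusted p = 0.0499). Of 18 genes for proteins that bind DELLA, 7 rose and 2 fell on average (median 0.02), beside the same 24.6% and 24.2% of all genes. ABI5, the abscisic acid transcription factor that arrests growth after germination, had 132 and 141 CPM in ago4-2 with NaCl, against 86.7 and 68.7 CPM in ago4-2 control, 92.5 and 96.4 CPM in ago4-3 with NaCl, against 66.9 and 62.4 CPM in ago4-3 control, and 77.7 and 77.0 CPM in Col-0 with NaCl, against 73.7 and 71.6 CPM in Col-0 control. It rose in ago4-2 (0.81 ± 0.10, adjusted p = 3.19e-05) and in ago4-3 (0.55 ± 0.10, adjusted p = 0.00156). The ago4-2 response differed from the Col-0 response for ABI5 (0.72 ± 0.15, adjusted p = 0.0114) and for ENY, a zinc-finger partner of DELLA (0.96 ± 0.15, adjusted p = 0.00192). BOI, a RING protein that works with DELLA at promoters, rose on average (0.56 ± 0.08, adjusted p = 2.47e-05), and PIF1, a light-labile repressor of germination, rose on average (0.44 ± 0.07, adjusted p = 7.15e-05). In ago4-2 alone, 6 of the 18 rose and 1 fell, where 35.1% of all genes were called. The gene that fell was SPT (−0.60 ± 0.13, adjusted p = 0.00194).

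Of 11 counted genes known to lie downstream of gibberellin or DELLA, 3 rose and 5 fell on average with salt (median −0.38). Over all genes, 24.6% rose and 24.2% fell. XERICO, a RING gene activated by DELLA, had 25.6 and 29.1 CPM in ago4-2 with NaCl, against 11.8 and 11.8 CPM in ago4-2 control, 11.96 and 10.6 CPM in ago4-3 with NaCl, against 6.03 and 5.88 CPM in ago4-3 control, and 11.2 and 13.7 CPM in Col-0 with NaCl, against 8.10 and 6.38 CPM in Col-0 control. Its NaCl libraries were higher in each genotype, and it rose on average (0.97 ± 0.09, adjusted p = 6.22e-07). The expansin genes EXPA2 (−1.02 ± 0.09, adjusted p = 4.85e-07) and EXPA8 (−1.01 ± 0.07, adjusted p = 2.05e-08), whose products loosen cell walls, fell on average, and GASA3, a small secreted peptide gene of seeds, rose (2.76 ± 0.12, adjusted p = 2.35e-10). The ago4-2 response differed from that of Col-0 for EXPA8 (−2.07 ± 0.17, adjusted p = 1.28e-05) and for GASA6 (−1.61 ± 0.28, adjusted p = 0.00450). In ago4-3 against Col-0 on control medium, where none of the 10 was called, EXPA2 (−2.19 ± 0.16, adjusted p = 2.25e-06) and GASA6 (−1.54 ± 0.20, adjusted p = 0.000709) were lower and were the 2 called genes of the 48.

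Likeness of pattern was measured as Pearson's r of log2 CPM over the 12 libraries, among 11415 genes with a mean of at least 10 CPM. It is a description of these libraries, which share 6 conditions. The closest gene to RGL2 was CIPK12 (r = 0.994), followed by BPC4 (r = 0.981). The closest to GID1A was AT1G07750 (r = 0.991), to SPY ML5 (r = 0.976), to RGL1 AT4G10480 (r = 0.976), to GID1B AT3G04020 (r = 0.961) and to GAI TET2 (r = 0.956). RGA and SLY1, the genes that varied least, had their closest genes at r = 0.937 (AT2G15690) and r = 0.917 (NBP35). Within the set of 10, RGL3 and GID1A were the most alike (r = 0.902), and GID1B and SPY the most opposed (r = −0.851).

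The authors' deposited tables give their own test of each pair of groups, 1 table for the 4 libraries of a pair. At a false discovery rate under 0.05, the authors' deposited tables called 4 of the 10 genes for salt in ago4-2 (2 higher, 2 lower, where 23.4% of the table's rows were called), 3 in ago4-3 (0 higher, 3 lower, 22.6% of rows) and 4 in Col-0 (2 higher, 2 lower, 22.7% of rows). In the authors' tests, GID1A was called for salt in Col-0 (false discovery rate 0.0293). It missed the threshold in ago4-2 (0.0580) and in ago4-3 (0.0854). For ago4-2 against Col-0, the authors' deposited tables called 6 genes with NaCl (5 higher, 1 lower, 35% of rows) and 0 in control (8.05% of rows). For ago4-3 against Col-0, the authors' deposited tables called 0 with NaCl (3.18% of rows) and 1, RGL1, as higher in control (8.57% of rows). For ago4-3 against ago4-2, the authors' deposited tables called 5 genes lower with NaCl (28.5% of rows) and 0 in control (5.99% of rows).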

How the data were processed

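Polyadenylated RNA of germinating seeds was sequenced in 12 libraries, 2 for each of 6 groups. The authors deposited 9 tables, 1 per pair of groups, with raw counts per gene, log2 fold changes and p-values with their FDR. The submitters' processing notes name build TAIR10 and the tools edgeR, DESeq, Picard and SAMtools, without versions. The aligner, counter and strand setting are not given in the sources used here. Each library's count column was the same in its 3 tables (0 disagreeing values), 36 pseudo-count columns were not used, and 18542 genes were joined, of which 17751 were counted in all 12 libraries and tested. Of the counts from 1 to 20, 72.4 to 87.7% per library were even, as when both mates of a pair are counted, so fewer fragments than counts may lie behind a value. Library totals and their depth differ up to 47517007 against 18168653 counts, and precision is poorest at low counts, of which the lowest was 48 among the 10 genes and 17 for SNE.

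Computed here were TMM-scaled CPM, CPM per kb of merged exon (RefSeq, TAIR10.1), and edgeR 4.0.16 quasi-likelihood tests over all 12 libraries with 1 coefficient per group, 12 contrasts and Benjamini-Hochberg adjustment over all genes, called under 0.05. Low-count filtering removed 0 genes. DESeq2 1.42.0, other scalings, filters, a replicate block, fits on own groups only and leaving out each library were the alternatives. All 10 genes are described, and up to 4 called genes per pathway list and contrast, by smallest adjusted p, may be named. The genes and lists were chosen with earlier results of these data known. Of the list genes, 2 whose symbol differs in the annotation were dropped. Motifs were sought on both strands in the 250 bases before the annotated start of 9 of the 10 genes (1 window is not reported here), and coordinates are 1-based. No protein sequence was used here.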

Additional observations from a re-analysis of the deposited data

Results flagged for a closer look

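Of the 48 pathway genes, 6 responded to salt differently in ago4-2 than in Col-0, by the test of the difference between the 2 log2 fold changes. Over all genes, 4.43% did. GA3OX2 (−1.23), GA3OX1 (−0.83), EXPA8 (−2.07) and GASA6 (−1.61) had a lower log2 fold change in ago4-2, and ENY (0.96) and ABI5 (0.72) a higher one. GASA6 had 3.16 and 3.70 CPM in ago4-2 with NaCl, against 20.3 and 17.6 CPM in ago4-2 control, and 5.26 and 7.12 CPM in Col-0 with NaCl, against 9.56 and 12.8 CPM in Col-0 control. ENY had 70.5 and 61.9 CPM in ago4-2 with NaCl, against 30.9 and 34.4 CPM in ago4-2 control, and 35.2 and 32.7 CPM in Col-0 with NaCl, against 31.7 and 33.5 CPM in Col-0 control. None of the 10 signalling genes passed this test with edgeR, 3 had an unadjusted p under 0.05, and DESeq2 called 1 of them.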

How the results depend on the processing

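For the 10 genes, 45 comparisons were followed under 19 alternatives: 34 called in the fit, and the rest called only under an alternative. Of the results, 741 stayed on the same side of the threshold, 101 were no longer called, 13 became called and 0 changed direction. The 101 come only from the 34 called in the fit, and the 741 include results that stayed uncalled. The pathway and marker genes were not followed in this way. Without 1 library at a time, the number of the 10 genes called ranged from 0 to 3 for salt in Col-0, 4 to 6 in ago4-2, 0 to 5 in ago4-3 and 6 to 8 on average, and from 3 to 6 for ago4-2 against Col-0 with NaCl, 0 to 4 in control, 2 to 4 for ago4-3 against ago4-2 with NaCl, 0 to 3 in control, and 0 to 1 for the ago4-2 response against that of Col-0. The labels number the replicates 1 and 2 in every group. Deviations of same-numbered libraries correlated at −0.46 to 0.27 over 16754 genes, so the numbers were not taken to pair libraries. With a replicate block, 1 gene was called for ago4-2 against Col-0 in control (3 without it) and 0 for ago4-3 against ago4-2 in control (1 without it). Fitted on their own groups, these came to 0 and 0, and DESeq2 called 1 gene, SPY, for the ago4-2 response.

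Over all genes, counts of calls that moved by over 1.5 times with another fit were 833 on own groups beside 1498 for ago4-2 against Col-0 in control, 657 beside 1597 for ago4-3 against ago4-2 in control, 586 on own groups and 465 with DESeq2 beside 294 for ago4-3 against Col-0 in control, 348 with DESeq2 beside 211 with NaCl, and 9 on own groups and 54 with DESeq2 beside 4 for the ago4-3 response. Leaving out 1 library at a time moved all but the averaged salt count past 1.5 times, and with them the shares of all genes given beside the 10: 1390 to 3843 (salt in Col-0), 3916 to 6415 (ago4-2), 2128 to 4770 (ago4-3), 533 to 2420 and 2804 to 6064 (ago4-2 against Col-0, control and NaCl), 92 to 585 and 87 to 323 (ago4-3 against Col-0), 879 to 1661 and 1867 to 4495 (ago4-3 against ago4-2), 254 to 1129 (ago4-2 response) and 1 to 30 (ago4-3 response), beside 3222, 6238, 4089, 1498, 5209, 294, 211, 1597, 3709, 786 and 4. The cause was not tested. With 2 libraries a group, a difference that missed the threshold is not shown to be absent.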

Other observations

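The remaining marker lists give the state of the tissue around the signalling genes. The 3 counted endosperm and seed coat genes summed to 123 to 124 CPM in ago4-2 with NaCl against 211 to 212 CPM in ago4-2 control, 48.5 to 50.02 CPM in ago4-3 with NaCl against 46.1 to 75.1 CPM in ago4-3 control, and 72 to 91.1 CPM in Col-0 with NaCl against 92.4 to 99.9 CPM in Col-0 control. With salt, 1 of these 3 rose and 1 fell in ago4-2 and in ago4-3, and 0 passed in Col-0. Over all genes, 35.1%, 23% and 18.2% were called in ago4-2, ago4-3 and Col-0. The 3 counted stomatal lineage genes, markers of the young leaf epidermis, summed to 15.7 to 16.1 CPM in ago4-2 with NaCl against 18.3 to 20.5 CPM in ago4-2 control, 10.7 to 13.5 CPM in ago4-3 with NaCl against 7.87 to 10.2 CPM in ago4-3 control, and 13.2 to 13.6 CPM in Col-0 with NaCl against 7.74 to 9.65 CPM in Col-0 control. The 1 counted root hair gene of the list was at 2.42 to 3.07 CPM in ago4-2 with NaCl against 0.258 to 0.475 CPM in ago4-2 control, 2.04 to 2.61 CPM in ago4-3 with NaCl against 1.06 to 1.15 CPM in ago4-3 control, and 2.02 to 2.08 CPM in Col-0 with NaCl against 0.248 to 0.269 CPM in Col-0 control. None of these genes was at 0 in any group.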
